A study of Mus musculus with 14 samples.

Results

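The m6A peaks of whole mouse liver were compared between animals that lost Mettl3 in hepatocytes and control animals. The comparison rests on 4 of the 14 libraries of the study, which are the m6A immunoprecipitation (IP) libraries of male liver. cKO replicates 2 and 3 came from Alb-cre Mettl3 fl/fl mice, in which Cre is driven by the albumin promoter and removes the floxed exons of Mettl3. WT replicates 2 and 3 are labelled wild type. The methods write such controls as Alb-cre Mettl3-/-, which is read here as Cre carriers with no floxed Mettl3 allele, and that reading was not checked. All were C57BL/6 males of 8 weeks. Since albumin-driven Cre acts in hepatocytes, the other cells of a cKO liver keep Mettl3, and whole liver holds both kinds of cell. Each IP library has its own input library of the same RNA without immunoprecipitation, and the 4 lists hold 6227 of the 40679 peaks listed for the 6 IP libraries of the study. The other 34452 belong to isolated hepatocytes, with 1 library per genotype.

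N6-methyladenosine (m6A) is the most common internal mark of messenger RNA. METTL3 is the catalytic subunit of the nuclear complex that writes it, METTL14 is the partner that helps to hold the RNA, and WTAP anchors the complex. The mark is placed at short motifs with the core GGAC, often near stop codons and in long exons, and reader proteins that bind it change the stability, splicing or translation of the transcript. In the method used here an antibody pulls down RNA fragments that carry the mark, and a peak is a stretch where the IP library holds more fragments than its input. A peak is therefore a ratio. From the lists alone a higher IP level and a lower input level cannot be told apart, and in whole liver fewer cells of a type and less RNA per cell cannot be told apart either.

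The sites below show what a GGAC match inside a recurrent peak looked like. They are the match nearest the middle of the shared interval in the genes named for each class, read on the transcript strand from the mouse genome GRCm38 (mm10), 5′ to 3′, with GGAC in capitals. A match is a description and no measured methylation site. The first 3 lie in peaks of both cKO libraries and of neither WT library, in regions placed in the 3′UTR.
Dyrk2 (chr10:118859355-118859375, minus strand): atacatggGGACaatgcttta
Cth (chr3:157894731-157894751, minus strand): gaataactGGACagatcatta
Serpina3k (chr12:104345457-104345477, plus strand): gggctctgGGACagagtctgc
The next 3 lie in peaks of both WT libraries and of neither cKO library, in the 5′UTR of Zfp609 and the 3′UTRs of Ptgfrn and Fam168a.
Zfp609 (chr9:65827530-65827550, minus strand): gcggcccgGGACgcgtagcag
Ptgfrn (chr3:101042553-101042573, minus strand): gaggaggaGGACacggggggg
Fam168a (chr7:100837522-100837542, plus strand): tgcacttaGGACagtagctct
The last is in the first exon of Aass, where all 4 libraries had a peak.
Aass (chr6:23132890-23132910, minus strand): gtggctggGGACtgatccata
Many recurrent peaks had no such match in their shared interval, among them those of Ctdsp1, Alas1, Kctd6, Sos2 and Mettl14.

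The peak lists differed in length and in strength. The cKO livers had 1624 and 1127 peaks in 1320 and 910 genes, against 2424 and 1052 peaks in 2072 and 892 genes in the WT livers. WT replicate 2 was the longest list and WT replicate 3 the shortest, so the numbers of the genotypes overlap (1376 ± 351 against 1738 ± 970, SD, n = 2 each, exact permutation p = 1). The score of a peak is -10 log10 of its p-value as the peak caller gave it. In the cKO livers 742 and 628 peaks reached a score of 50, against 471 and 387 in the WT livers. Both cKO libraries were thus above both WT libraries in strong peaks (exact permutation p = 0.33, the smallest p that 2 against 2 allows). Peaks at or above 1000 numbered 399 and 346 in the cKO livers, against 201 and 209 in the WT livers. Weak peaks made up the WT lists more than the cKO lists, with 39.5% and 28.8% of peaks under a score of 20 in the cKO livers, against 61.6% and 47.1% in the WT livers. The median fold enrichment was 4.90 and 6.68 in the cKO livers and 3.75 in each WT liver. Among peaks with a score of at least 50 it was 26.1 and 25.8 against 26.4 and 26.2, so the difference in the median went with the share of weak peaks. The false discovery rate in the lists was 100% for every peak outside WT replicate 2, where 194 peaks were lower and the lowest was 52.6%. How deeply the IP libraries were sequenced was not among the values available for this work, and the part of depth in these differences was not tested.

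**Figure D1:**
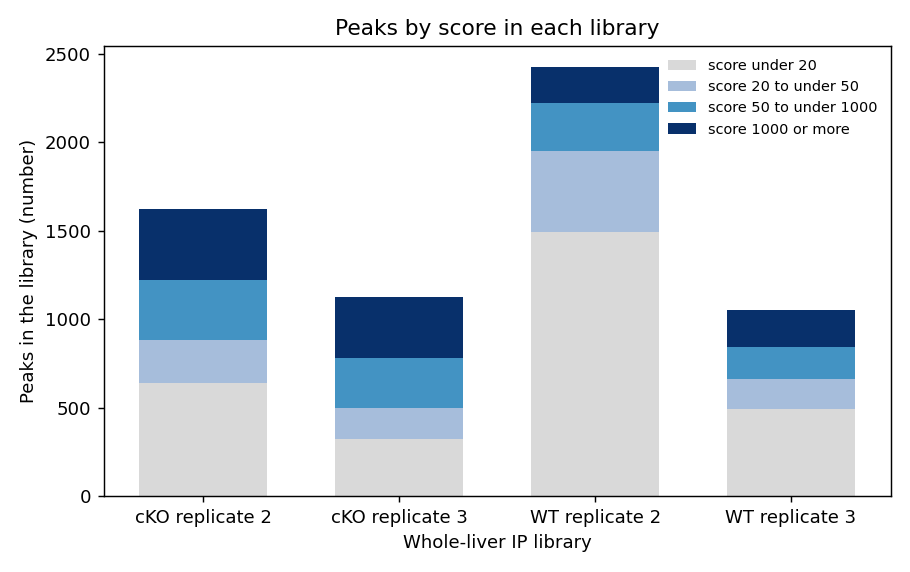
Number of peaks in each whole-liver IP library (bars), split by the score of the peak, which is -10 log10 of its p-value. The 2 cKO libraries hold 742 and 628 peaks with a score of at least 50, against 471 and 387 in the 2 WT libraries, while WT replicate 2 has the most peaks in all through those under 20.

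Along the transcript the lists were alike. Peak centres lay in the 5′UTR for 15.7% and 15.7% of placed peaks in the cKO livers and 13.7% and 14.9% in the WT livers. The coding sequence held 56.8% and 57.5% in the cKO livers and 54.5% and 55.0% in the WT livers. The 3′UTR held 26.3% and 25.1% in the cKO livers, against 30.5% and 28.7% in the WT livers. The libraries of the genotypes did not overlap in these shares, and each difference was under 4 percentage points (exact permutation p = 0.33, the smallest possible). GGAC stood in the central 100 nt of 37.6% and 37.7% of peaks in the cKO livers and of 38.3% and 36.9% in the WT livers. Its reverse complement GTCC, counted in the same windows as a comparison of equal base composition, stood in 28.1% and 28.5% in the cKO livers and 28.6% and 30% in the WT livers. In isolated hepatocytes the shares for GGAC were 40.5% in cKO and 41.5% in WT, against 22.4% and 24.1% for GTCC.

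Few genes had a peak in every library of 1 genotype and in none of the other. Of the 3303 genes with a liver peak in any library, 84 had a peak in both cKO livers and in neither WT liver (2.54%), and 102 had a peak in both WT livers and in neither cKO liver (3.09%). In all, 471 genes had a peak in both cKO livers and 485 in both WT livers. The genotype-restricted genes were 17.8% of the 471 (95% Wilson interval 14.6% to 21.5%) and 21% of the 485 (17.6% to 24.9%), intervals that cover counting error only. A larger group of 258 genes had a peak in all 4 livers. By far the most genes had a peak in a single library, led by WT replicate 2 with 1205 genes. With a score of at least 50, 187 genes were in that library alone.

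With all peaks, pairs of libraries of 1 genotype lay inside the range of pairs across genotypes in the number of genes they shared. The cKO livers shared 471 genes, which are 35.7% of the genes of cKO replicate 2 and 51.8% of those of cKO replicate 3. The WT livers shared 485, which are 23.4% and 54.4% of the genes of WT replicates 2 and 3. Across genotypes, cKO replicate 2 shared 618 genes with WT replicate 2 (46.8% and 29.8% of their genes) and 500 with WT replicate 3 (37.9% and 56.1%). cKO replicate 3 shared 490 with WT replicate 2 (53.8% and 23.6%) and 355 with WT replicate 3 (39.0% and 39.8%). At a score of at least 50 the cKO pair was above every pair across genotypes in number. The cKO livers shared 203 genes, the WT livers 136 and pairs across genotypes 138 to 179. The cKO lists were also longer at that score, with 621 and 519 genes against 411 and 357. As a share of the longer list the cKO pair stood at 32.7%, against 26.6% to 30.8% across genotypes. As a share of the shorter list it stood at 39.1%, inside the 38.7% to 50.1% across genotypes. The WT pair stood at 33.1% and 38.1%.

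For genes, the direction of the difference turned with the strength of the peaks counted. With peaks of a score of at least 50, 57 of 1281 genes were restricted to the cKO livers (4.45%) and 13 to the WT livers (1.01%). Of these, 36 and 8 were also restricted with all peaks, and the others had a weaker peak in the other genotype. The cKO lists were longer at that score, with 621 and 519 genes against 411 and 357. With the 1000 highest-scoring peaks of each library the direction did not turn, with 63 genes for cKO and 74 for WT. Peak regions, made by merging overlapping peaks of the 4 lists, did not turn, and cKO had the larger number under both counts. Of 4303 regions, 136 were found in both cKO livers only (3.16%) and 93 in both WT livers only (2.16%), and 257 in all 4 livers. With a score of at least 50 the numbers were 93 (5.82%) for cKO and 16 (1.00%) for WT, of 1597 regions. The WT-restricted genes were therefore mostly carried by weak peaks: 54 of the 102 had no peak of score 50 in any library, and 8 had one in both WT livers. Of the 84 cKO-restricted genes, 34 had none and 36 had one in both cKO livers. In 61 of the 84 cKO-restricted genes and in 71 of the 102 WT-restricted genes the peaks of both libraries lay in the same region. Without WT replicate 3, the count of genes with a peak in WT replicate 2 and in neither cKO liver was 1307.

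The strongest genes restricted to the cKO livers included enzymes, a secreted protein and regulators. Ctdsp1, a phosphatase of RNA polymerase II, had a peak at chr1:74394640-74394732, in the coding sequence of exon 5 of 7, with a fold enrichment of 838 and 258 in the cKO livers and none in the WT livers. Its input was 28.4 and 27.4 FPKM in the cKO livers and 28.8 and 35.6 FPKM in the WT livers. FPKM are input fragments per kilobase of transcript, scaled to the size of the library. Alas1, the rate-limiting enzyme of heme synthesis, had a peak over exon 7 of 11 (chr9:106238643-106238822) at 58.7 and 59.3. Its input was 363 and 230 FPKM in the cKO livers and 768 and 143 FPKM in the WT livers. These peaks were at the same bases in both cKO livers, and the input levels of the genotypes overlapped for Alas1. Serpina3k, a secreted protease inhibitor, had a 3′UTR peak at chr12:104345233-104345741 with a fold enrichment of 44.7 and 15.9. Its input fell to 597.5 and 1218 FPKM in the cKO livers, against 3646 and 3528 FPKM in the WT livers (limma log2 fold change -2.07, standard error 0.40, adjusted p = 0.0365). Cth, which makes cysteine from cystathionine, had 3′UTR peaks at 95.5 and 25.8, with an input of 133 and 184 FPKM in the cKO livers and 106 and 119 FPKM in the WT livers. Dyrk2, a protein kinase, had peaks at 207 and 94.0, with the centre in the 3′UTR in cKO replicate 2 and in the coding sequence in cKO replicate 3.

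Other genes of this class had their cKO peaks at different places of the transcript. Phlda1, which encodes a pleckstrin-homology-like protein, had a 3′UTR peak at 353 in cKO replicate 2 and a coding peak at 413 in cKO replicate 3. Its input was 23.3 and 6.38 FPKM in the cKO livers and 28.1 and 51.8 FPKM in the WT livers. Ppp1r3b, which targets a phosphatase to glycogen and activates glycogen synthase, had separate 3′UTR peaks at 236 and 323, with 22.7 and 7.82 FPKM in the cKO livers and 52.9 and 15.6 FPKM in the WT livers. The gene thus recurred while the site did not. The same held for Ap1g1 (1284 and 88.3), a subunit of a clathrin adaptor, for Phyh (27.2 and 19.3), a peroxisomal enzyme of phytanic acid breakdown, and for Yap1 (30.2 and 37.1), the co-activator of the Hippo pathway. The input of Phyh was 250 and 503 FPKM in the cKO livers and 719 and 945 FPKM in the WT livers.

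The strongest genes restricted to the WT livers included several with peaks in first exons. Kctd6, an adaptor of a ubiquitin ligase, had a 5′UTR peak at chr14:8214148-8214342 with a fold enrichment of 706 and 293 in the WT livers and none in the cKO livers. Sos2, a Ras activator, had a 5′UTR peak at 539 and 256, and Zfp609, a zinc finger protein, one at 665 and 188. The WT peaks of these genes overlapped between both libraries. Pi4ka, which makes phosphatidylinositol 4-phosphate, had a peak at 644 and 281 that could not be placed on its transcript. The input of Kctd6 was 7.77 and 10.8 FPKM in the cKO livers, both above the 5.27 and 4.31 FPKM in the WT livers. That of Sos2 was 12.02 and 10.5 FPKM in the cKO livers and 11.98 and 7.30 FPKM in the WT livers, which overlapped. Neither passed the limma test (adjusted p = 0.248 for Kctd6 and 0.751 for Sos2). The others of the 10 strongest were Cebpd (1152 and 143), Cct7 (53.03 and 218), Epb4.1 (1027 and 44.95), Rabep1 (8.44 and 44.7), Ptgfrn (11.3 and 7.20) and Fam168a (4.06 and 1532). The last of these, Fam168a, had a score of 42.7 in WT replicate 2 and 3100 in WT replicate 3, which is how uneven such a pair could be.

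Major urinary protein genes made up a large part of the cKO-restricted regions. Major urinary proteins (MUPs) are small pheromone carriers that the male mouse liver secretes in bulk, from a cluster of near-identical genes on chromosome 4 whose reads cannot be assigned to a single copy with certainty. The group of 22 genes was chosen after the peaks were seen. It had 87 and 89 peaks in the cKO livers, against 16 and 10 in the WT livers. Of these, 74 and 75 in the cKO livers and 8 and 8 in the WT livers reached a score of 50. All 22 genes had a peak in each cKO liver, against 8 and 7 genes in the WT livers. The group held 58 of the 136 cKO-restricted regions (42.6%), 0 of the 93 WT-restricted regions and 4 of the 257 regions found in all 4 livers (1.56%). Mup7 had 4 peaks in each cKO liver, the best at a fold enrichment of 3734 and 60.6, and none in either WT liver.

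The input moved the other way for the same genes. The summed input of the 21 MUP genes in the expression table was 9.57 and 15.4 FPKM in the cKO livers, against 7097 and 9834 FPKM in the WT livers. No count of single MUP genes called by a test is given, since most were listed at 0 in the cKO inputs and passed the filter on low values through the WT inputs. Mup3 had 5.62 and 2.42 FPKM in the cKO livers, against 3072 and 3379 FPKM in the WT livers, and Mup20 had 2.63 and 12.7 FPKM against 157 and 763 FPKM. Mup7 was listed at 0 in both cKO inputs, against 1876 and 3029 FPKM in the WT inputs, and in all 17 and 18 of the 21 genes were listed at 0 in the cKO livers, against 2 and 2 in the WT livers. No fold change is given for a gene listed at 0, since such a value can be a failed estimate in a family of near-identical copies. A higher IP and a lower input cannot be told apart here. Without the MUP genes 78 regions were restricted to the cKO livers and 93 to the WT livers, a change of direction, and at a score of at least 50 there were 39 and 16.

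**Figure D2:**
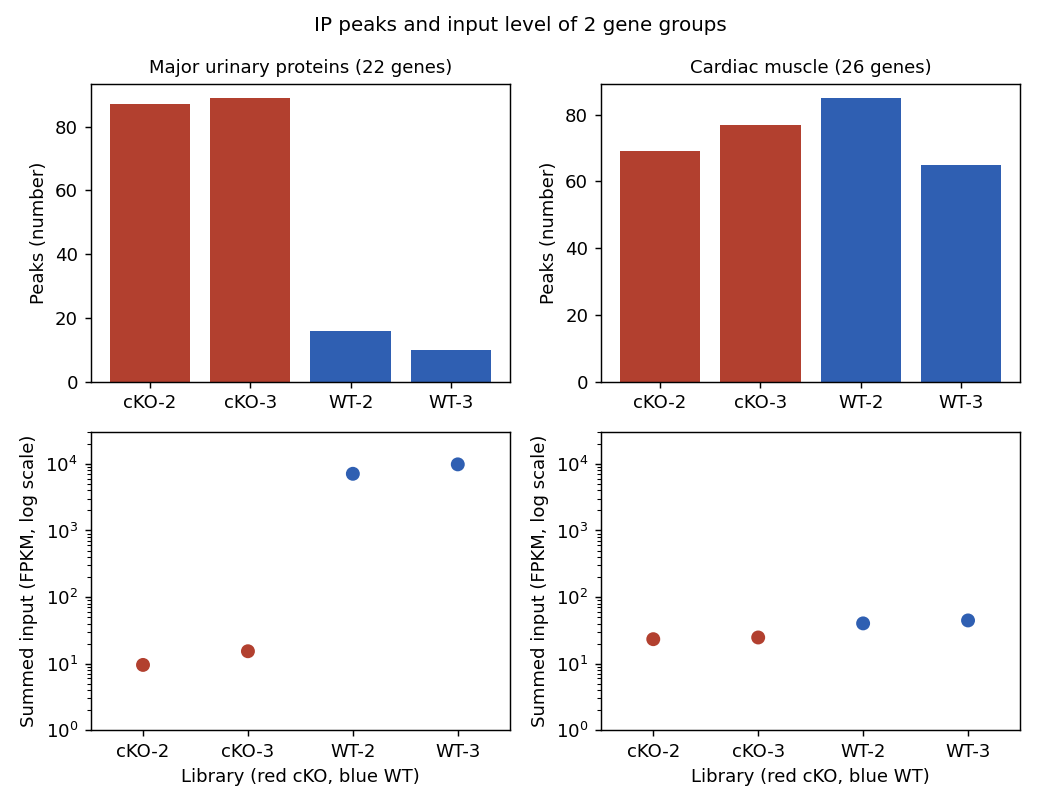
Number of IP peaks (upper panels, bars) and summed input level in FPKM on a log axis (lower panels, points) in each library for 22 major urinary protein genes (left) and 26 cardiac muscle genes (right), cKO in red and WT in blue. The MUP genes have 87 and 89 peaks in cKO against 16 and 10 in WT while their input is 9.57 and 15.4 FPKM against 7097 and 9834 FPKM, and the cardiac genes have between 65 and 85 peaks in every library at an input under 45 FPKM.

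The input of the restricted genes differed by class when all peaks were counted. Over all 10937 genes tested, limma called 403 higher in cKO (3.68%) and 164 lower (1.50%). Of 53 tested cKO-restricted genes other than the MUP genes, 14 were lower in cKO (26.4%) and 0 higher, with a median log2 fold change of -0.32, against 0.42 over all genes. Their median level was 12.64 and 10.69 FPKM in the cKO livers against 25.75 and 24.75 FPKM in the WT livers. The MUP genes are left out of these counts, since most passed the filter on low values through the WT inputs. Of 81 tested WT-restricted genes 8 were higher in cKO (9.88%) and 0 lower, with a median of 0.68 and a median level of 7.77 and 8.64 FPKM in the cKO livers against 4.70 and 4.98 FPKM in the WT livers. Of 139 tested genes with a peak in all 4 livers, 4 were higher and 3 lower, with a median of 0.37. With peaks of a score of at least 50 the classes differed less. Of 42 tested cKO-restricted genes other than the MUP genes, 5 were then lower (11.9%) and 1 higher, with a median of -0.13. None of the 11 tested WT-restricted genes was called, and their median was 0.62. With median-ratio scaling of the input the median over all genes went to -0.00, and the calls over all genes to 169 higher and 283 lower, in place of 403 and 164. The cKO-restricted genes other than the MUP genes then had 15 lower and 0 higher, and the WT-restricted genes 3 higher and 0 lower. No gene was called with any of the 4 inputs left out. Each peak is a ratio to the same input, so these classes and the input are not independent measures.

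**Figure D3:**
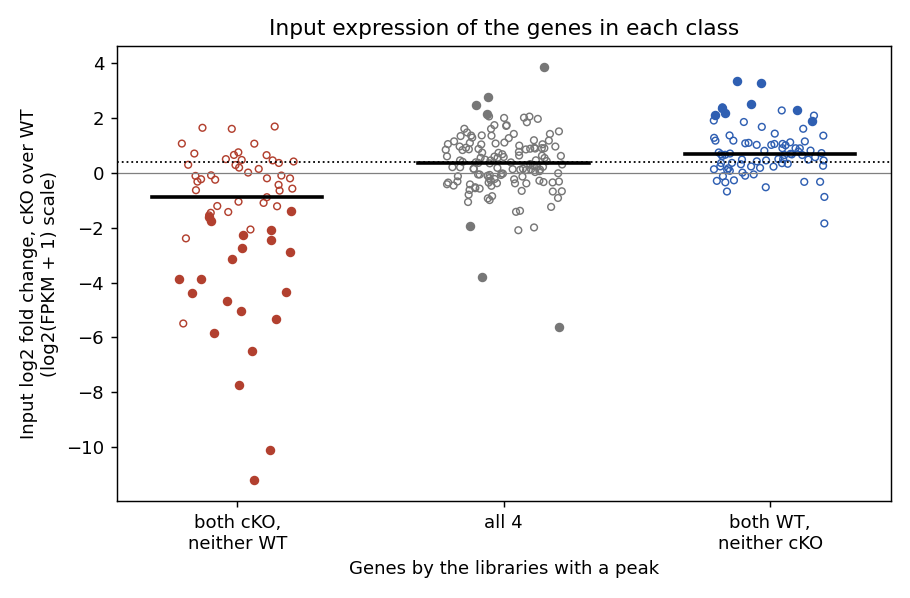
Input log2 fold change of cKO over WT on the log2(FPKM + 1) scale (y axis) for tested genes with a peak in both cKO libraries only, in all 4, or in both WT libraries only (x axis). Points are genes, filled where the limma adjusted p is under 0.05, the black bar is the class median (-0.88, 0.37 and 0.68), and the dotted line the median of all tested genes (0.42). The cKO class is drawn with its MUP genes, most of which passed the filter on low values through the WT inputs. Without them its median was -0.32.

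Within the cKO-restricted class, 3 liver enzymes had a much lower input in cKO and weak peaks. Car3, a carbonic anhydrase abundant in male liver, had 15.5 and 20.7 FPKM in the cKO inputs, against 608 and 937 FPKM in the WT inputs (limma log2 fold change -5.32, adjusted p = 0.00171), with best peaks of only 5.65 and 4.25 fold in the cKO livers. Ces3b, a carboxylesterase, had 4.95 and 3.77 FPKM against 136 and 135 FPKM (limma log2 fold change -4.68, adjusted p = 0.00215). Cyp2c54, a cytochrome P450, had 2.02 and 0.224 FPKM against 129 and 90.1 FPKM (limma log2 fold change -5.82, adjusted p = 0.00407). The peaks of these genes had scores under 50, and the input of each fell. Car3, Ces3b and Cyp2c54 were chosen after their values were seen.

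Gene lists of liver function placed few of their members in a restricted class. Of 23 genes of cytochrome P450 and conjugation, 3 were cKO-restricted (Cyp1a2, Cyp2c37 and Gsta3) and 0 WT-restricted, with 9 lower in the input and 0 higher. Of the 23 genes, 13 had a peak in any liver library, and of all genes with such a peak 2.54% were cKO-restricted. Over all 22481 genes of the input, with or without a peak, 81 were cKO-restricted, 99 were WT-restricted and 247 had a peak in all 4 livers. Of all genes tested 1.50% were lower in the input. Gsta3, a glutathione transferase, had peaks at 14.9 and 10.1 in the cKO livers, and its input fell to 418 and 352 FPKM, against 959 and 1068 FPKM in the WT livers (limma adjusted p = 0.0486). Cyp2c37 had 10.8 and 10.2 FPKM in the cKO livers against 75.4 and 50.1 FPKM (limma adjusted p = 0.0206), and Cyp1a2 had 113 and 265 FPKM against 347 and 461 FPKM (adjusted p = 0.162). In the complement and coagulation list of 27 members Fga was cKO-restricted and C3 had peaks in all 4 livers, with 7 lower and 0 higher of 26 tested in the input. Fga, the fibrinogen alpha chain, had best peaks at 115 and 9.67 in the cKO livers, with an input of 353 and 450.5 FPKM against 1028 and 1426 FPKM (limma adjusted p = 0.0436). Among 27 plasma and acute phase proteins Itih4 and Serpina3k were cKO-restricted and Saa1 and Saa2, near-identical copies, had peaks in all 4 livers, with 1 higher and 4 lower of 26 tested. With median-ratio scaling of the input these 3 lists had 12, 8 and 9 lower and 0 higher in each.

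Energy and amino acid metabolism showed little difference in peaks. Over all 22481 genes of the input, 81 were cKO-restricted, 99 were WT-restricted and 247 had a peak in all 4 livers. Among 20 genes of fatty acid oxidation, Pdk4, a kinase that shuts pyruvate dehydrogenase, was WT-restricted (7.51 and 3.56 fold). That list had 1 gene higher and 0 lower in the input, beside 3.68% higher and 1.50% lower over all genes. The 25 genes of the urea cycle and amino acid breakdown gave Cth for cKO and Aass, of lysine breakdown, for all 4, with 0 higher and 3 lower in the input. Aass fell to 22.2 and 36.8 FPKM in the cKO livers, against 113 and 114 FPKM in the WT livers (limma adjusted p = 0.0352). The 21 glycogen genes gave Ppp1r3b for cKO and Pygb, brain glycogen phosphorylase, for WT (5.63 and 3.12), with 4 higher and 2 lower in the input. Pygb rose to 11.8 and 38.1 FPKM in the cKO livers, against 1.09 and 1.28 FPKM in the WT livers (limma adjusted p = 0.0273). No gene of gluconeogenesis (16 genes, 0 higher and 0 lower in the input), fatty acid and triglyceride synthesis (22, 0 and 2), cholesterol synthesis and uptake (21, 0 and 1), bile acid synthesis and transport (21, 1 and 6), liver transcription factors (23, 0 and 0) or growth factor signalling (18, 1 and 2) was in a restricted class or had a peak in all 4 livers. With median-ratio scaling of the input the calls over all genes went to 169 higher and 283 lower. Higher and lower calls were then 0 and 3 for fatty acid oxidation and 1 and 2 for the glycogen genes. They were 0 and 3 for gluconeogenesis and 0 and 5 for fatty acid and triglyceride synthesis. Cholesterol genes had 0 and 2 and bile acid genes 1 and 7. Liver transcription factors had 0 and 1, growth factor signalling 0 and 2, and the urea cycle list stayed at 0 and 3.

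Lists of stress and growth genes had few recurrent peaks outside the ribosomal and translation list. Over all 22481 genes of the input, 81 were cKO-restricted, 99 were WT-restricted and 247 had a peak in all 4 livers. Most calls of these lists in the input were of higher levels in cKO, beside 3.68% higher and 1.50% lower over all genes. The ribosomal and translation list (24 genes) had 7 higher and 0 lower in the input, with Rps3 cKO-restricted (18.5 and 6.07 fold) and Rpl3, Rpl4 and Eif4g1 in all 4 livers. The list of p53 and NRF2 targets (20) had 7 higher and 0 lower. No count of calls is given for the fetal liver list (12, of which 8 were tested). Its summed input was 176.5 and 347.5 FPKM in the cKO livers, against 5.11 and 5.69 FPKM in the WT livers. Its members could thus pass the filter on low values through the cKO inputs. None of the p53 and NRF2 targets was restricted, and H19, a long non-coding RNA of fetal liver, was WT-restricted (3.75 and 2.50 fold). The immediate early list (22) had 2 higher and 0 lower of 20 tested and gave Egr1, a transcription factor of the early growth response, for WT (13.1 and 2.27). The unfolded protein list (19) had 2 higher and 0 lower and no restricted gene. The cell cycle list (20) had 1 higher and 0 lower of 16 tested and gave Ccnd1, cyclin D1, for WT (3.75 and 7.07). With median-ratio scaling of the input the counts of higher genes were smaller. They were 4 for the ribosomal and translation list, 3 for the p53 and NRF2 targets, 1 for the immediate early list and 0 for the cell cycle list. The unfolded protein list then had 1 higher beside 1 lower.

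Summed input levels of liver cell markers differed between the genotypes, while few single markers passed the test. The summed level of 14 hepatocyte markers was 19010 and 22600 FPKM in the cKO livers, against 31740 and 41360 FPKM in the WT livers, with Alb, the marker that defines the cell, at 6112 and 11760 FPKM against 17600 and 25020 FPKM. The sums were higher in cKO for Kupffer cells and macrophages (454 and 687 against 246 and 210 FPKM), stellate cells (257 and 315 against 102 and 143.5 FPKM), cholangiocytes (269 and 185 against 65.04 and 28.2 FPKM) and sinusoidal endothelium (239 and 229 against 173 and 140 FPKM). The groups did not overlap in any of these sums, while the lymphocyte sums did (12.4 and 15.2 against 12.2 and 7.93 FPKM). The median log2 fold change over all genes was 0.42, and -0.00 with median-ratio scaling. That of the endothelial markers was 0.51, and 0.04 with that scaling. The others with that scaling were 0.75 for Kupffer, 0.82 for stellate, 1.63 for cholangiocyte and -1.01 for hepatocyte markers. limma called 1 of 14 Kupffer, 1 of 14 stellate and 1 of 7 tested cholangiocyte markers higher, 1 of 14 hepatocyte markers lower, and 0 of 14 endothelial and 0 of 4 tested lymphocyte markers, beside 3.68% higher and 1.50% lower over all genes. With median-ratio scaling 4 of the 14 hepatocyte markers were lower, 1 Kupffer and 1 cholangiocyte marker were higher, and no stellate marker was called. Clec4f, a Kupffer cell lectin (2.44 and 56.5 fold), was restricted to WT. So were Des (5.63 and 4.37) and Lum (5.63 and 3.12), markers of stellate cells. Over all 22481 genes of the input, 99 were WT-restricted and 81 cKO-restricted. No hepatocyte, endothelial, cholangiocyte or lymphocyte marker was in a restricted class. The part of cell composition in the peak differences was not tested.

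The m6A machinery and the transcripts that the study centres on had few liver peaks. Mettl3 had no peak in any liver library. Its input was 26.3 and 14.7 FPKM in the cKO livers and 8.43 and 10.6 FPKM in the WT livers (limma log2 fold change 0.99, standard error 0.42, adjusted p = 0.197). A gene-level FPKM does not resolve the floxed exons, so this value does not check the genotype. Mettl14 had a peak in all 4 livers in its first exon (from chr3:123385762), at 5.08 and 2.89 fold in the cKO livers and 7.51 and 4.37 fold in the WT livers, with scores of 73.7 and 25.1 against 47.9 and 51.5. Wtap had a single weak peak in WT replicate 2 (score 6.72), and Fto and Alkbh5, the demethylases, and Igf2bp2, a reader, had none. Over the list of 21 writers, erasers and readers, 0 of 18 tested genes passed in the input, beside 3.68% higher and 1.50% lower over all genes. The median log2 fold change of the list was 0.73, against 0.42 over all genes. With median-ratio scaling the 2 medians were 0.25 and -0.00.

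Of Gys2, Fasn, Mlxipl and Egfr, only Fasn and Egfr had a liver peak, each in 1 cKO library, and the input of Gys2 and Egfr fell in cKO. Gys2, the liver glycogen synthase, had no peak in any liver library, and its input fell to 17.1 and 13.6 FPKM in the cKO livers, against 73.1 and 54.8 FPKM in the WT livers (limma log2 fold change -1.99, standard error 0.36, adjusted p = 0.0319). In hepatocytes it had 1 peak in the cKO library and 3 in the WT library. Fasn, fatty acid synthase, had 1 liver peak, in exon 10 of 43 in cKO replicate 3 (fold 9.13, score 405), with an input of 50.9 and 21.1 FPKM in the cKO livers and 201.5 and 84.5 FPKM in the WT livers (limma adjusted p = 0.0919). Egfr, the receptor of epidermal growth factor, had 3 peaks in cKO replicate 2 only, the best in the 3′UTR at 333 fold. Its input fell to 19.6 and 26.0 FPKM in the cKO livers, against 204 and 216 FPKM in the WT livers (limma log2 fold change -3.16, standard error 0.33, adjusted p = 0.00824). Mlxipl, a glucose-sensing transcription factor, had no liver peak, with 23.0 and 8.54 FPKM in the cKO livers and 102 and 55.4 FPKM in the WT livers (limma adjusted p = 0.055). Aqp8, a water channel, had no liver peak either.

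Regions with a peak in all 4 livers showed no difference in enrichment that passed the test. At the 257 regions limma called 0 after adjustment (0.00% in either direction), with 3 higher and 4 lower at an unadjusted p under 0.05 and a smallest adjusted p of 0.402. The median log2 difference of cKO minus WT was -0.22, with quartiles of -0.59 and 0.21. It turned to 0.17 without WT replicate 2, whose median fold enrichment of 12.3 stood above 7.91 and 7.33 in the cKO livers and 6.24 in WT replicate 3. Both cKO values were above both WT values in 25 regions (9.73%) and below them in 40 (15.6%). Some of the widest differences rested on 1 library. A region of Stim1, a calcium sensor, had 886 and 17.9 fold in the cKO livers against 5.63 and 2.47 fold in the WT livers, and a region of Marf1 (chr16:14159674-14159831) had 4.52 and 2.89 fold against 969 and 4.37 fold. In A230103J11Rik, a non-coding transcript, both cKO libraries were high, with 546 and 321 fold in the cKO livers against 25.7 and 7.35 fold in the WT livers (log2 difference 4.93, standard error 0.83, unadjusted p = 0.00156 and adjusted p = 0.402 from limma).

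**Figure D4:**
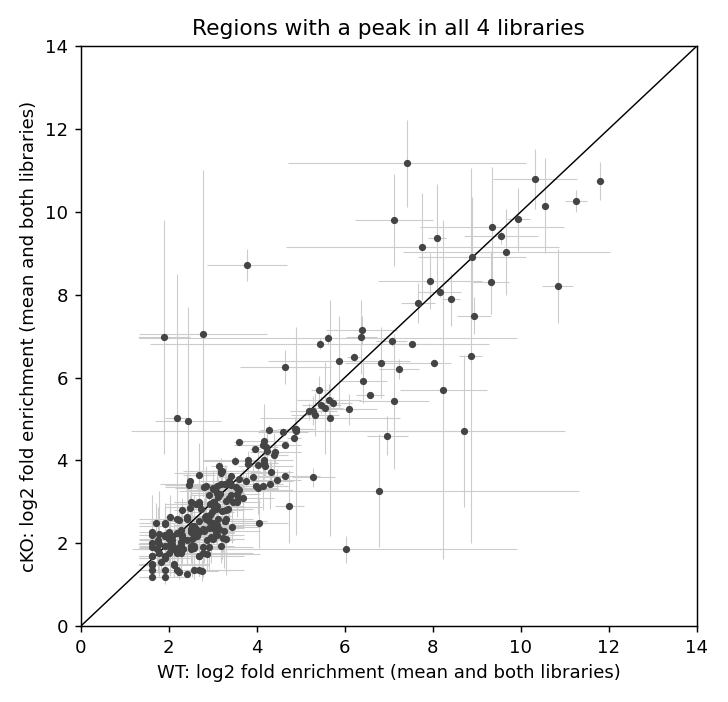
Mean log2 fold enrichment in the 2 cKO libraries (y axis) against that in the 2 WT libraries (x axis) for the 257 regions with a peak in all 4, where whiskers reach both libraries of a genotype and the line marks equal values. The regions lie around the line with a median difference of -0.22, and the spread between libraries of a genotype is as wide as the differences.

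Some of the strongest peaks of all 4 livers lay at or beside small RNA genes. Of the 257 regions, 22 were within 200 bp of an annotated small RNA (8.56%, Wilson interval 5.72% to 12.6%), against 68 of all 4303 regions (1.58%), 1 of the 136 cKO-restricted (0.735%) and 2 of the 93 WT-restricted (2.15%). With a score of at least 50 in all 4 libraries it was 18 of 86 (20.9%). At that score it was 51 of 1597 for any region (3.19%), 1 of 93 cKO-restricted (1.08%) and 2 of 16 WT-restricted (12.5%). The small RNAs were 15 microRNAs, 12 snoRNAs and 2 5S rRNA copies. Rpl17 and Tnpo2, which host snoRNAs, had 2370 and 1244 fold in the cKO livers against 3768 and 3333 fold in the WT livers, and 1473 and 1027 fold against 2037 and 2891 fold. Eif4g1, beside Snord66, had 314 and 159 fold against 264 and 156 fold. Enrichment at these places was high in both genotypes, and the levels of the genotypes overlapped for Eif4g1. Ncl, which encodes nucleolin, and Rpl4 had a peak in all 4 livers but no region common to all 4. The best peaks of Ncl were 402 and 344 fold in the cKO livers and 2162 and 2292 fold in the WT livers. That of cKO replicate 2 lay in exon 6 and the others in exon 5. Those of Rpl4 were 762 and 429 fold against 3197 and 1257 fold, in exon 4 in cKO replicate 2 and in exon 2 in the others. Both cKO inputs were above both WT inputs for these genes, with 95.8 and 57.5 FPKM against 25.7 and 12.7 FPKM for Ncl and 443 and 410 FPKM against 172 and 176 FPKM for Rpl4 (limma adjusted p = 0.0553). Col22a1, a collagen listed at 0 in all 4 inputs, had a peak over exon 48 of 64 at 1527 and 535 fold in the cKO livers and 1173 and 821.5 fold in the WT livers.

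Several of these peaks covered or bordered a microRNA hairpin, and the mature sequences show which microRNAs they are. For 12 of the 15 microRNAs RefSeq (GRCm38) gave a hairpin, of which 8 lay wholly inside the region and 2 more touched it. The mature sequences follow 5′ to 3′ with the seed, bases 2 to 8, in capitals.
mmu-miR-21a-5p: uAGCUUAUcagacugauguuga
mmu-miR-26a-5p: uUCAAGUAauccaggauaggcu
mmu-miR-199a-5p: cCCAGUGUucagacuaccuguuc
mmu-miR-27b-3p: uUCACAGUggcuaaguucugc
mmu-miR-10a-5p: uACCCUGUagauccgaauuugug
mmu-miR-10b-5p: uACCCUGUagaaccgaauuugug
The last 2 share a seed and come from the Hoxb4 and Hoxd4 loci. The region with Mir21a, annotated to Vmp1 (chr11:86583865-86584676), held the whole hairpin at 512 and 202 fold in the cKO livers and 107 and 560 fold in the WT livers. The region at Mir26a-2, in the first exon of Ctdsp2, touched the hairpin end and had 2947 and 1072 fold in the cKO livers against 655 and 2468 fold in the WT livers. Mir199a-2 in Dnm3os had 2174 and 294 fold against 210 and 2020 fold, and the cluster of Mir23b, Mir27b and Mir24-1 had 1319 and 172 fold against 203 and 1109 fold. In each of these, 1 library of either genotype was high and the other low, so the genotypes overlapped. Mir10a had 234 and 1393 fold against 1856 and 25.2 fold, and Mir10b, which its region neared without overlap, had 39.1 and 179 fold against 19.1 and 178 fold. Of the 12 hairpins 2 contain GGAC.

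Cardiac muscle genes were a further group that recurred in all 4 livers. The 26 genes, which encode sarcomere and other heart proteins, were chosen after the peaks were seen. They had 69 and 77 peaks in the cKO livers and 85 and 65 in the WT livers, and 39 of their 120 regions were found in all 4 livers, which is 15.2% of the 257. Of all 4303 regions 5.97% were found in all 4 livers. The restricted regions of the group were 4 for cKO and 4 for WT, beside 3.16% and 2.16% of all regions. Myh6, the alpha heavy chain of cardiac myosin, had 14 peaks in each of the 4 libraries, of which 9 regions were common to all and 5 were at the same bases. Its best peak was 9.60 and 14.4 fold in the cKO livers and 20.3 and 12.5 fold in the WT livers, while its input was 0.583 and 0.604 FPKM against 0.963 and 0.476 FPKM. Mb, myoglobin, had 3 peaks in each library at an input of 2.78 and 4.22 FPKM in the cKO livers and 7.21 and 7.71 FPKM in the WT livers. Myh7, the beta heavy chain, was listed at 0 in all 4 inputs and had 5 and 7 peaks in the cKO livers and 7 and 5 in the WT livers. The group was thus near absent from the input, with a summed level of 23.3 and 24.7 FPKM in the cKO livers against 40.2 and 44.6 FPKM in the WT livers. In the input 0 of 13 tested genes were called, beside 3.68% higher and 1.50% lower over all genes. In the hepatocyte IP libraries the same genes had 3 peaks in cKO and 1 in WT.

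A low input was a wider property of the regions found in all 4 livers. Of 245 such regions in genes with an input value, 114 were in genes below a mean of 1 FPKM (46.5%, Wilson interval 40.4% to 52.8%), against 24 of 122 cKO-restricted regions (19.7%), 20 of 90 WT-restricted (22.2%) and 1032 of 4194 of all regions (24.6%). The regions of all 4 livers were also narrower, with a median width of 154 bp, against 176.5 bp for cKO-restricted, 278 bp for WT-restricted and 200 bp for all regions. Their median best fold enrichment was 13.1, against 13.5 and 7.51 in the restricted classes. Of those that could be placed, 59.8% lay in coding sequence (Wilson interval 53.3% to 66.0%) and 18.3% in the 3′UTR (13.8% to 23.9%), beside 55.2% and 30.2% of all regions, so that the interval for coding sequence takes in the share of all regions. The 3′UTR held 31.0% of cKO-restricted and 34.5% of WT-restricted regions.

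In their share of GGAC and their overlap with hepatocyte peaks, the cKO-restricted and WT-restricted regions had counting intervals that overlapped. GGAC was in the central 100 nt of 32% of cKO-restricted regions (Wilson interval 23.7% to 41.7%), 38.1% of WT-restricted (28.4% to 48.8%), 35.7% of those in all 4 (29.7% to 42.2%) and 38.8% of all regions. GTCC was in 31.0%, 28.6%, 32.1% and 28.3% of the same classes. Hepatocyte peaks of the cKO library overlapped 11.8% of cKO-restricted regions (7.37% to 18.3%) and 23.7% of WT-restricted (16.2% to 33.2%), against 19.5% of all regions. Hepatocyte peaks of the WT library overlapped 29.4% (22.4% to 37.6%) and 19.4% (12.6% to 28.5%), against 25.4% of all. Without the MUP genes the cKO-restricted shares were 37.1% for GGAC (26.8% to 48.9%) and 22.9% for GTCC (14.6% to 34.0%). They were 17.9% for hepatocyte cKO peaks and 33.3% for hepatocyte WT peaks. With all peaks, cKO-restricted regions thus overlapped WT hepatocyte peaks more often than cKO ones, as all regions did. WT-restricted regions overlapped cKO hepatocyte peaks more often, by 22 regions against 18. With a score of at least 50 the WT-restricted regions turned, with 2 of 16 overlapping cKO hepatocyte peaks and 4 overlapping WT ones. The cKO-restricted regions did not turn at that score (18 and 39 of 93). There was 1 hepatocyte library per genotype, and the difference was not tested.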

How the data were processed

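Male liver was profiled by m6A immunoprecipitation (IP) and by matched input RNA, with 2 IP and 2 input libraries for each genotype. Per the labels and methods, the authors trimmed reads with cutadapt 1.9.3, aligned them to mm10 with HISAT2 2.0.4 and called peaks with MACS on each library. In the 4 liver lists 61.3% to 69.4% of peaks started or ended exactly at an exon border of their transcript. The kit is named differently in the labels and in the methods. The deposited score is -10 log10 of the p-value that the authors' MACS gave. The deposited fold enrichment is the ratio of IP over its input as the authors' MACS gave it. The deposited false discovery rate is in percent, from the same MACS run by the authors. The deposited FPKM come from the authors' Cufflinks and Cuffdiff. The deposited count columns are an estimated signal that the authors scaled with 1 factor per library. The steps between low values (93.8% to 95.3% whole within 0.02 steps) give about 3315964 and 5875156 fragments for the cKO inputs and 3262647 and 3621759 for the WT inputs, so genes near 1 FPKM rest on few fragments.

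Genotypes were taken from the labels. Regions were made by merging peaks that share at least 1 bp. Peaks in both libraries of 1 genotype and in neither of the other were counted, with no test per gene, since the smallest exact p for 2 against 2 libraries is 0.33. Values per library were tested with a two-sided exact permutation test. Input was tested with limma 3.58.1 in R 4.3.3, with a trend, on log2(FPKM + 1) for genes that averaged 1 FPKM or more, and enrichment with limma on log2 fold enrichment of the highest peak. Benjamini-Hochberg adjustment ran over all features of a fit, with 0.05 as the threshold. A fold change on the log2(FPKM + 1) scale understates the change of low genes. P-values measure only the spread between these libraries. Scripts were tested on simulated data. Wilson intervals have a level of 95% and cover counting error only.

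The members and gene lists were chosen with earlier results of these data known. Named genes were the 10 of each restricted class and the 8 of all 4 livers with the highest lowest best score, with ties ordered by fold enrichment (an order chosen after the data were seen), the genes that the study names, list members in a restricted class and up to 4 in all 4, and the regions with the widest enrichment differences. The alternatives are other score minimums, list lengths, overlaps, filters, scalings, a pseudocount of 0.1 FPKM, a replicate block and leaving out each library. Female liver RNA was not used here. Some members of the gene lists are not reported here.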

Additional observations from a re-analysis of the deposited data

Results flagged for a closer look

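For 4 of the 10 strongest genes restricted to the cKO livers, the hepatocyte IP libraries had the opposite pattern at the level of the gene, with a peak in the WT library and none in the cKO library. Ctdsp1 had 1 hepatocyte peak in WT with a best score of 46.32. Ppp1r3b, the glycogen-targeting phosphatase subunit, had 4 in WT with a best score of 3100. Alas1, of heme synthesis, had 6 in WT with a best score of 3100. Serpina3k, the secreted protease inhibitor, had 4 in WT with a best score of 3100. A WT hepatocyte peak of Serpina3k overlapped its liver region, while none of Ctdsp1 or Alas1 did, and Ppp1r3b had no region common to both cKO livers. Of all 84 genes restricted to the cKO livers, 52 had a hepatocyte peak in WT and 33 had one in cKO. Of the 102 genes restricted to the WT livers, 56 had one in WT and 72 in cKO. Of the 258 genes with a peak in all 4 livers, the numbers were 137 and 148. Over the 22481 genes of the input, 7301 had one in WT and 7970 in cKO. Hepatocytes have 1 library per genotype, so the difference between tissues was not tested.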

How the results depend on the processing

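Genes and regions restricted to 1 genotype depended on which peaks were counted. With a score of at least 20 there were 64 genes for cKO and 38 for WT (106 and 40 regions), and with at least 50 there were 57 and 13 (93 and 16 regions). Of the genes restricted with all peaks, 36 for cKO and 8 for WT remained at 50. With the 1000 highest peaks of each library there were 63 and 74 genes (110 and 77 regions). Genes at 5 FPKM or more in all inputs left 31 and 27 genes (24 and 25 regions). Identical intervals gave 104 and 39 regions, and an overlap of at least 0.5 of the shorter peak 135 and 93. Without the major urinary protein genes, a setting chosen after the data were seen, there were 74 and 102 genes and 78 and 93 regions, and with a score of at least 50 as well 45 and 13 genes and 39 and 16 regions. With 1 library left out, the cKO counts ranged from 128 to 555 genes and from 181 to 876 regions, and the WT counts from 132 to 1307 genes and from 127 to 1679 regions. More genes were then restricted to the genotype with 1 library, by construction, since it had to be in fewer libraries. No peak had a false discovery rate of 5% or less, so that setting gave no value. In the input limma called 403 genes higher and 164 lower in cKO, against 289 and 124 with a pseudocount of 0.1 FPKM, 2 and 9 with no filter on low values, 169 and 283 with median-ratio scaling, and 788 and 286 with a replicate block. Leaving out any 1 input gave 0 higher and 0 lower calls (961 to 2203 higher and 299 to 879 lower at an unadjusted p under 0.05), with 1 library left in an arm that is assumed to vary like the other. Same-numbered libraries correlated weakly in their deviations (0.126 in the input and 0.101 in enrichment) and, although the methods state littermate controls, no source ties a replicate number to a litter or day. With 2 pairs these correlations do not settle it, so the replicate block stands only as an alternative. For the 257 shared regions every setting gave 0 calls by limma, with medians of -0.22 with the replicate block, -0.02 after centring each library and -0.55 to 0.17 with 1 library left out. The cause of these shifts was not tested. The depth of the inputs limits low genes, and that of the IP libraries was not among the values available for this work.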
